A study of Mus musculus with 12 samples.

Results

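The 36 genes described here make, take up, move or store cholesterol and fatty acids, or control these pathways. They were listed by name, and stand among 21729 genes in the count table, 14462 of them with a count somewhere. Of the 36 genes, 18 encode enzymes of sterol synthesis, 7 from acetyl-CoA to farnesyl diphosphate and 11 from squalene to cholesterol. A further 5 genes control the pathway, 8 make or modify fatty acids, and 5 move, export or store sterols.

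Cholesterol is built in the cytosol and endoplasmic reticulum from acetyl-CoA through mevalonate and squalene, and fatty acids from the same acetyl-CoA through malonyl-CoA. When membrane sterol is low, the escort protein Scap carries the SREBP transcription factors to the Golgi, where they are cut and released to the nucleus and raise transcription of the genes of both pathways, while Insig proteins hold Scap back when sterol is plentiful. When sterol is in excess, LXR receptors raise the exporters, and Soat1 turns cholesterol into esters for storage. Dividing cells need both lipids for new membrane and can also take cholesterol from serum lipoproteins.

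The cells were 12 single cultured CPCs, cardiac progenitor cells that were isolated with beads against the receptor c-Kit (CD117) from lineage-depleted non-myocyte cells of adult hearts. The donors were 12-week-old female FVB mice, and all 12 cells share the same treatment: adherent growth on gelatin to passage 5 in medium with 10% serum, insulin-transferrin-selenium, leukemia inhibitory factor, basic fibroblast growth factor, epidermal growth factor, B27 and N2. Per the methods of the study each preparation pooled the hearts of a pair of mice, and single cells were picked by mouth pipette. The labels tie no cell to an animal or a culture dish, so the 12 cells form 1 group and were not treated as replicates, no test was made, and spread and correlation are descriptions of these cells. Fresh CPCs were not analysed here.

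Total counts per cell ran from 3453708 to 5690184 and detected genes from 10022 to 11950. Levels are given as CPM, the count per 1000000 counts of that cell. A count of 0 allows up to 3 counts, or 0.527 to 0.869 CPM depending on the cell, and since reads carried no molecular identifiers such limits cover counting error only. The c-Kit receptor gene Kit itself was counted in 1 of 12 cells, at 3.94 CPM, and of 10 fibroblast markers 4 were counted in every cell, Col1a1, Col1a2, Col3a1 and Pdgfra, while the other 6 were counted in 1 (Lum) to 8 (Thy1) cells. Of 10 cardiomyocyte markers 7 were at 0 in every cell, and of 10 adipocyte markers, 6 were at 0 in every cell, Adipoq and Plin1 among them, while Pparg was counted in 12 cells, Lpl in 11 and Fabp4 in 9. The cardiomyocyte gene Tnnt2 was counted in 10 cells. Several cells stood apart by their markers. Cell 10 held 9477 CPM of 10 summed endothelial markers against at most 58.3 CPM elsewhere, with Vwf and Cldn5 at 0. Cell 3 held 160 CPM of 10 haematopoietic markers against at most 76.3 CPM, with Itgam and Laptm5 at 0. Cell 11 held 3737 CPM of 10 mural markers against at most 172 CPM elsewhere. Of this, 3668 CPM were Acta2, while Kcnj8 was at 0, and Myh11 and Tagln reached at most 0.797 and 11.2 CPM in any cell. Pdgfrb was counted in all 12 cells. Cell 12 held 6333 CPM of 10 fibroblast markers against at most 2850 CPM elsewhere, of which 6118 CPM were Col1a1, Col1a2 and Col3a1. Sums, correlations and dispersion are given with and without cells 3 and 10, the lowest in summed sterol synthesis genes, where the values differ most.

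The start regions of 4 members named in the results below are shown. Those of Hmgcs1 and Acat2 carry CACNCCAC, a form of the short sterol response element through which SREBP proteins act. Those of Mvk and Fasn lack this form, and forms of the element without CACNCCAC were not searched. The RefSeq table, on GRCm38.p6, gave 36 windows for 28 of the 36 genes and had none for Npc1, Fdps, Fdft1, Fads1, Stard4, Scd1, Scd2 and Sqle. Sequences run from 5′ to 3′ on the strand of the gene and stop where an annotated gene body begins. Capitals mark CACNCCAC, a form of the sterol response element, and CCAAT, the NF-Y element, on either strand. The Hmgcs1 stretch lies at chr13:119690101-119690350 on the plus strand, that of Acat2 at chr17:12960748-12960975 on the minus strand, that of Mvk at chr5:114444061-114444268 on the plus strand and that of Fasn at chr11:120824548-120824797 on the minus strand.
Hmgcs1: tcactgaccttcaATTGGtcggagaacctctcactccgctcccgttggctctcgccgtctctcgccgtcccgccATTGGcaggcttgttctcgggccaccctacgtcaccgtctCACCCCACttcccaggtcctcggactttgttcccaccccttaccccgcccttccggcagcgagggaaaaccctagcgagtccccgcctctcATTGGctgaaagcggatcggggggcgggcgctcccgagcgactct
Acat2: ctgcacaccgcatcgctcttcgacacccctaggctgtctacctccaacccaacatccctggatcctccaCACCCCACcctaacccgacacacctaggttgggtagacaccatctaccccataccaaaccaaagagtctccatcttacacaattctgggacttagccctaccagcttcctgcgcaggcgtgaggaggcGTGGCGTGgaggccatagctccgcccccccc
Mvk: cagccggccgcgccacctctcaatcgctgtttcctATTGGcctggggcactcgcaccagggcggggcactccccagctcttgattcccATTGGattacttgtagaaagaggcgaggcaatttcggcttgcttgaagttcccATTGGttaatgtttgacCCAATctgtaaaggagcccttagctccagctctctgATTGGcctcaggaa
Fasn: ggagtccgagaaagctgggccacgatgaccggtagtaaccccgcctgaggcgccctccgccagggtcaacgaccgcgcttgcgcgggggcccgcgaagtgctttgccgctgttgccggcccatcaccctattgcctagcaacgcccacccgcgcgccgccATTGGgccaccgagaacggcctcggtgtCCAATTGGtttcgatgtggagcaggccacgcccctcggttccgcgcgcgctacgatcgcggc

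Hmgcs1 held the longer form TCACNCCAC, which contains CACNCCAC, starting 137 bases before its RefSeq start. This form was found in no window of the other members and in 1.24% of all 32851 windows. The shorter form was in 3 of the 36 member windows, those of Hmgcs1, Acat2 and Insig1, against 6.24% of all windows. In Insig1 it began 9 bases before the RefSeq start. The stretch of Mvk held CCAAT or its complement ATTGG 5 times, and that of Fasn and that of Hmgcs1 3 times each. CCAAT was in 14 of 18 windows of sterol synthesis genes (77.8%) and in 37.4% of all windows, and the Sp1 element GGGCGG was in 15 of these 18 windows (83.3%) and in 35.7% of all. These are matches of letters within 300 bases and say nothing of which factor was bound in these cells.

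The pathway was detected almost whole. In all, 32 of 36 genes had a count in every one of the 12 cells, while 53.1% of those 14462 genes did. Over genes and cells, 424 of 432 values were above 0 (98.1%), and 352 of the 432 reached 10 CPM (81.5%). The matching shares of values over all genes were not computed, so these percentages describe the 36 genes only. The 8 values at 0 lay in 4 genes, Dhcr7, Fdps, Idi1 and Mvd. A mean of at least 10 CPM was reached by 33 of the 36 genes and by 8492 genes in all, and only those 33 enter the correlations below. The 3 others, Idi1, Fdps and Dhcr7, belong to sterol synthesis.

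**Figure D1:**
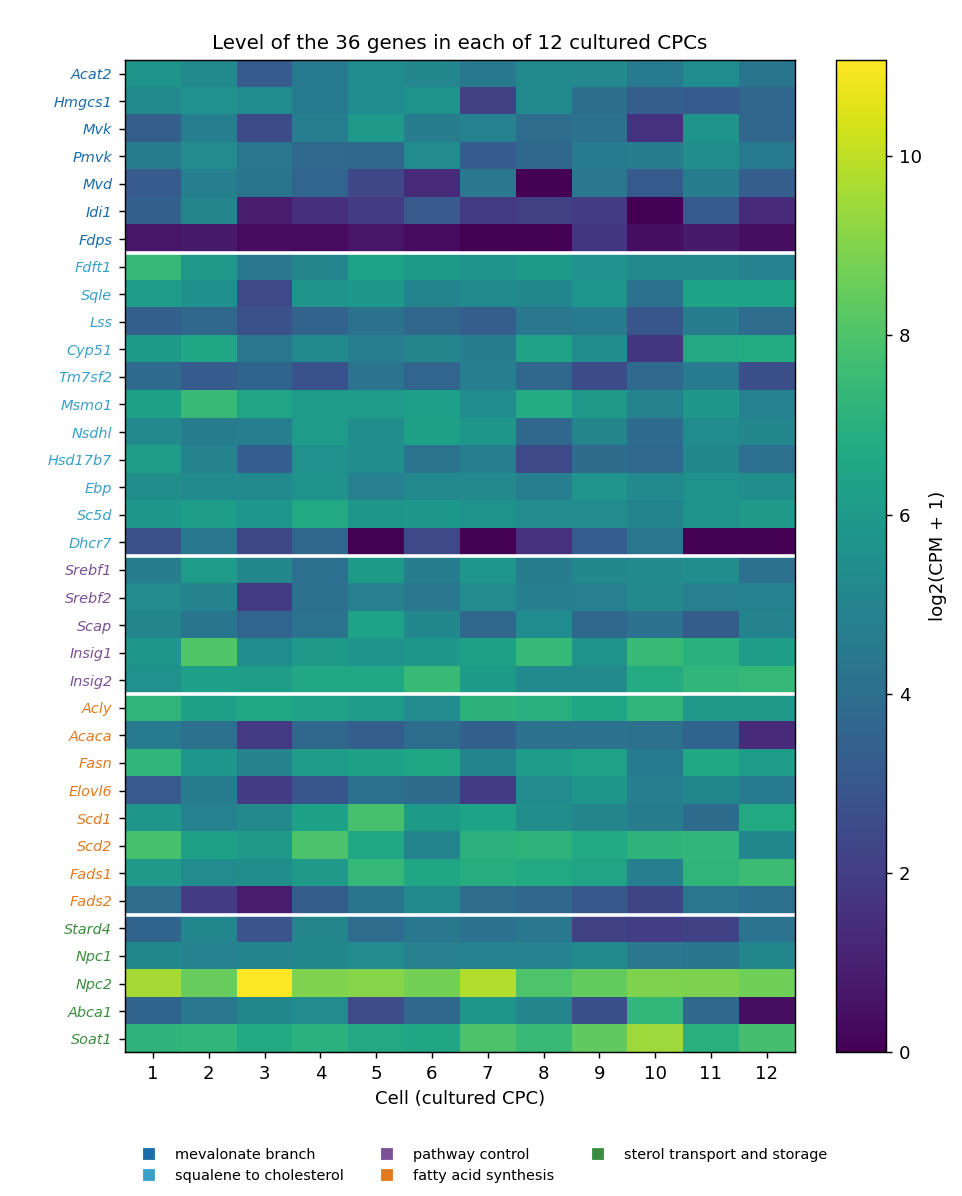
Level of each of the 36 genes (vertical axis, coloured and separated by role) in each of 12 cultured CPCs (horizontal axis), as log2(CPM + 1). Most squares lie in a middle range; Npc2 is highest in cell 3 at 2152 CPM, and the 8 squares at 0 are those of Dhcr7 in 4 cells, Fdps in cells 7 and 8, Idi1 in cell 10 and Mvd in cell 8.

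In the branch that makes mevalonate and isoprenoids, 4 of 7 genes were counted in every cell. Acat2, the thiolase that joins 2 acetyl-CoA units, ran from 8.44 CPM in cell 3 over a median of 35.4 CPM to 52.7 CPM in cell 1. Hmgcs1, which adds the next acetyl unit to give HMG-CoA, ran from 3.42 CPM in cell 7 over a median of 30.7 CPM to 49.1 CPM in cell 6. Mvk, mevalonate kinase, ran from 2.07 CPM in cell 10 over a median of 20.4 CPM to 61.3 CPM in cell 5. For Hmgcs1, 5 cells lay at 14.9 CPM or less and 7 between 23.5 and 49.1 CPM. The widest step, from 23.5 to 37.9 CPM, lay among the latter, so the cells did not form separate sets. The 3 lowest cells of Mvk were cells 10, 3 and 1, of which cell 10 was also among the 5 cells lowest in Hmgcs1. Pmvk, the kinase of the following step, was more even than Hmgcs1 and Mvk, with 8.18 CPM in cell 7, a median of 22.6 CPM and 43.5 CPM in cell 11.

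Mvd, the decarboxylase that yields isopentenyl diphosphate, was at 0 in cell 8, which allows up to 0.545 CPM, and otherwise lay between 1.59 and 26.2 CPM around a median of 10.2 CPM. Idi1, its isomerase, was at 0 in cell 10, had a median of 2.86 CPM and reached 32.1 CPM in cell 2. Fdps, farnesyl diphosphate synthase, was close to the floor throughout, with a median of 0.363 CPM, 0 in cells 7 and 8 and at most 2.52 CPM, or 12 counts, in cell 9. Fdft1, which acts on the product of Fdps, was by contrast counted in every cell. Of the longest coding transcript of Fdps, 76.9% matched 5 other annotated genes at 95% identity or more over at least 75 bases, and a further gene on the same strand covered 26.7% of the exonic bases of Fdps. Only uniquely mapped reads were kept, so the level of Fdps is uncertain, and the part of these copies in it was not tested.

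From squalene onward, 10 of 11 genes were counted in every cell. Msmo1, a methylsterol monooxygenase that acts after Cyp51, had the highest median in CPM of the 18 sterol synthesis genes, 68.1 CPM, with 28.6 CPM in cell 12 and 176 CPM in cell 2. Sc5d, a desaturase near the end of the route, followed with a median of 55.8 CPM between 31.0 CPM in cell 10 and 104 CPM in cell 4. Fdft1, squalene synthase, had a median of 49.5 CPM, a low of 20.6 CPM in cell 3 and a high of 164 CPM in cell 1. The value of cell 1 stood clear of the others, the next being 83.8 CPM in cell 5.

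Sqle, squalene epoxidase and a rate-controlling step, had a median of 49.1 CPM and lay between 31.1 and 85.2 CPM in 10 cells but at 4.48 CPM in cell 3 and 17.3 CPM in cell 10. Cyp51, the lanosterol demethylase, was at 2.44 CPM in cell 10, while the remaining 11 cells lay from 19.5 to 113 CPM. Both enzymes were thus low in cell 10, and Sqle in cell 3 as well. Hsd17b7, a sterol ketoreductase, had a median of 22.4 CPM, with 4.36 CPM in cell 8 and 73.8 CPM in cell 1. Nsdhl, which acts with it on the methyl groups, was lowest in the same cell 8 at 12.0 CPM and highest in cell 6 at 77.6 CPM.

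Ebp, a sterol isomerase, was the most even of the 18 genes, from 26.0 to 53.7 CPM around a median of 38.3 CPM. Its coefficient of variation was 0.221, and its dispersion residual, the log10 of the squared coefficient of variation less the running median of genes of like mean, was -0.75. The low-level enzymes were Lss, lanosterol synthase, with a median of 12.0 CPM, and Tm7sf2, a sterol reductase, which ran from 4.82 CPM in cell 9 over 11.6 CPM to 26.2 CPM in cell 7. Vps51, on the same strand, shares 12.1% of the exonic bases of Tm7sf2, and the levels of this pair had an r of 0.734 over 12 cells. The part of shared reads in it was not tested. Dhcr7, the reductase that completes cholesterol, was at 0 in 4 cells (5, 7, 11 and 12), had a median of 4.37 CPM and reached 20.7 CPM in cell 2 and 19.7 CPM in cell 10. Cell 10, lowest in Mvk, Cyp51, Sc5d and Idi1, was thus second in Dhcr7. No annotated copy of the Dhcr7 or Lss transcript was found.

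Among the controllers, the cells carried both SREBP genes and both Insig genes. Srebf2, which encodes the SREBP that acts mainly on sterol genes, had a median of 27.6 CPM and lay between 16.1 CPM and, in cell 1, 39.7 CPM in 11 cells, but at 2.64 CPM in cell 3. Srebf1, whose product acts more on fatty acid genes, ran from 15.3 CPM in cell 4 over 34.7 CPM to 67.2 CPM in cell 2. Per kb of exonic sequence, Srebf1 exceeded Srebf2 in 10 of 12 cells, with a median ratio of 1.66 and a range of 0.770 in cell 12 to 16.4 in cell 3. The ratio in cell 3 came with the low count of Srebf2 there.

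Insig1, itself a target of SREBP, ran from 41.4 CPM in cell 3 over a median of 66.1 CPM to 264 CPM in cell 2. Insig2, the form that does not depend on SREBP, ran from 37.9 CPM in cell 9 over 85.6 CPM to 173 CPM in cell 6. Neither paralog led: the ratio of Insig1 to Insig2 per kb was above 1 in 6 of 12 cells, with a median of 1.14, a low of 0.381 in cell 6 and a high of 5.06 in cell 8. Scap, the escort of both SREBP proteins, had a median of 18.3 CPM and a high of 83.8 CPM in cell 5, and an unreviewed gene model on the opposite strand covered 13.2% of its exonic bases.

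All 8 fatty acid genes were counted in every cell. Acly, which splits citrate to supply cytosolic acetyl-CoA to both pathways, had a median of 85.9 CPM between 39.6 CPM in cell 6 and 156 CPM in cell 10. Acaca, the carboxylase that makes malonyl-CoA, was low, with a median of 13.7 CPM, 1.58 CPM in cell 12 and 22.6 CPM in cell 1. Fasn, the fatty acid synthase, had a median of 67.5 CPM, with its lowest values in cell 10 at 23.1 CPM and cell 3 at 30.1 CPM and its highest in cell 1 at 154 CPM. Acly was thus highest in the cell in which Fasn was lowest. Elovl6, which lengthens palmitate, lay at 2.64 CPM in cell 3 and reached 56.8 CPM in cell 9.

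The desaturase pairs were present at unequal levels. Scd1 and Scd2 put the initial double bond into saturated fatty acids. Scd1 ran from 14.3 CPM in cell 11 over 50.6 CPM to 228 CPM in cell 5, and Scd2 ran from 31.1 CPM in cell 6 over 122 CPM to 245 CPM in cell 4. Per kb, Scd2 was above Scd1 in 9 of 12 cells, with a median ratio of Scd1 to Scd2 of 0.382, while cells 5, 6 and 12 showed the opposite order. The ratio reached 3.36 in cell 12 and was lowest at 0.104 in cell 11. Over the 12 cells the paralogs had an r of -0.176, and 11.4% of the Scd2 transcript matched Scd1 at 95% identity or more.

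Fads1 and Fads2 desaturate polyunsaturated fatty acids and lie side by side on chromosome 19. Fads1 ran from 26.7 CPM in cell 10 over 88.4 CPM to 192 CPM in cell 12, and Fads2 from 0.791 CPM, or 3 counts, in cell 3 over 12.97 CPM to 38.0 CPM in cell 6. Fads1 exceeded Fads2 per kb in all 12 cells, by a median ratio of 5.89 and at least 1.61. The levels of this pair went together, with r = 0.722 over 12 cells and 0.617 without cells 3 and 10.

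Transport and storage held both the most variable of the 33 genes over 12 cells, Abca1, and the most even, Npc1. The dispersion residual of Abca1 was 0.77, and 0.36 without cells 3 and 10, where Scd1 at 0.59 was the most variable. Npc2, the soluble protein that hands cholesterol out of the lysosome, had a median of 478 CPM, a low of 260 CPM in cell 8 and a high of 2152 CPM in cell 3, far above the next cell at 895 CPM. Npc1, its membrane partner, lay between 18.6 and 40.0 CPM with a dispersion residual of -0.78. Partners in the same step thus differed in spread, at residuals of 0.73 for Npc2 and -0.78 for Npc1, and of 0.15 and -0.82 without cells 3 and 10. Soat1, the esterifying enzyme, had a median of 151 CPM and lay between 92.7 and 331 CPM in 11 cells and at 692 CPM in cell 10. Abca1, the cholesterol exporter, ran from 0.351 CPM, or 2 counts, in cell 12 over a median of 16.5 CPM to 162 CPM in cell 10, where the next cell had 57.4 CPM. Stard4, a carrier of sterol between membranes, had a median of 15.7 CPM and was lowest in cell 10 at 3.19 CPM. Cell 10, which was high in Abca1 and Soat1, was the cell with the endothelial markers, and cell 3, high in Npc2, that with the most haematopoietic marker counts. The part of these markers in the values was not tested.

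Levels can be compared between genes only per length. In CPM per kb of exonic sequence, the medians over 12 cells ran from 87.9 for Npc2, 24.6 for Insig2, 22.3 for Scd2, 21.4 for Insig1 and 18.4 for Fads1 down to 0.801 for Acaca, 0.751 for Dhcr7 and 0.0864 for Fdps. The ranges of neighbours in this order overlapped throughout, Insig2, Scd2 and Insig1 among them, and only the extremes were set apart: the lowest cell of Npc2, 47.9 CPM per kb, lay above the highest cell of 32 of the other 35 genes. Among sterol synthesis genes the order was led by Ebp at 16.6, Acat2 at 13.9 and Pmvk at 13.2 CPM per kb. With the longest transcript in place of all exonic bases, 9 of the first 10 genes were shared, but the leading sterol synthesis genes were Msmo1 at 22.9, Ebp at 22.0 and Pmvk at 19.0 CPM per kb. Copies at 95% identity covered 65.6% of the Acat2 transcript, 64.3% of Acaca, 33.8% of Fdft1 and 22.6% of Idi1, and their levels are uncertain for this reason. Fdft1 also overlaps Ctsb, which had a median of 1380 CPM, on the opposite strand over 18.3% of its exonic bases, and without strand the reads of both genes cannot be told apart there.

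**Figure D2:**
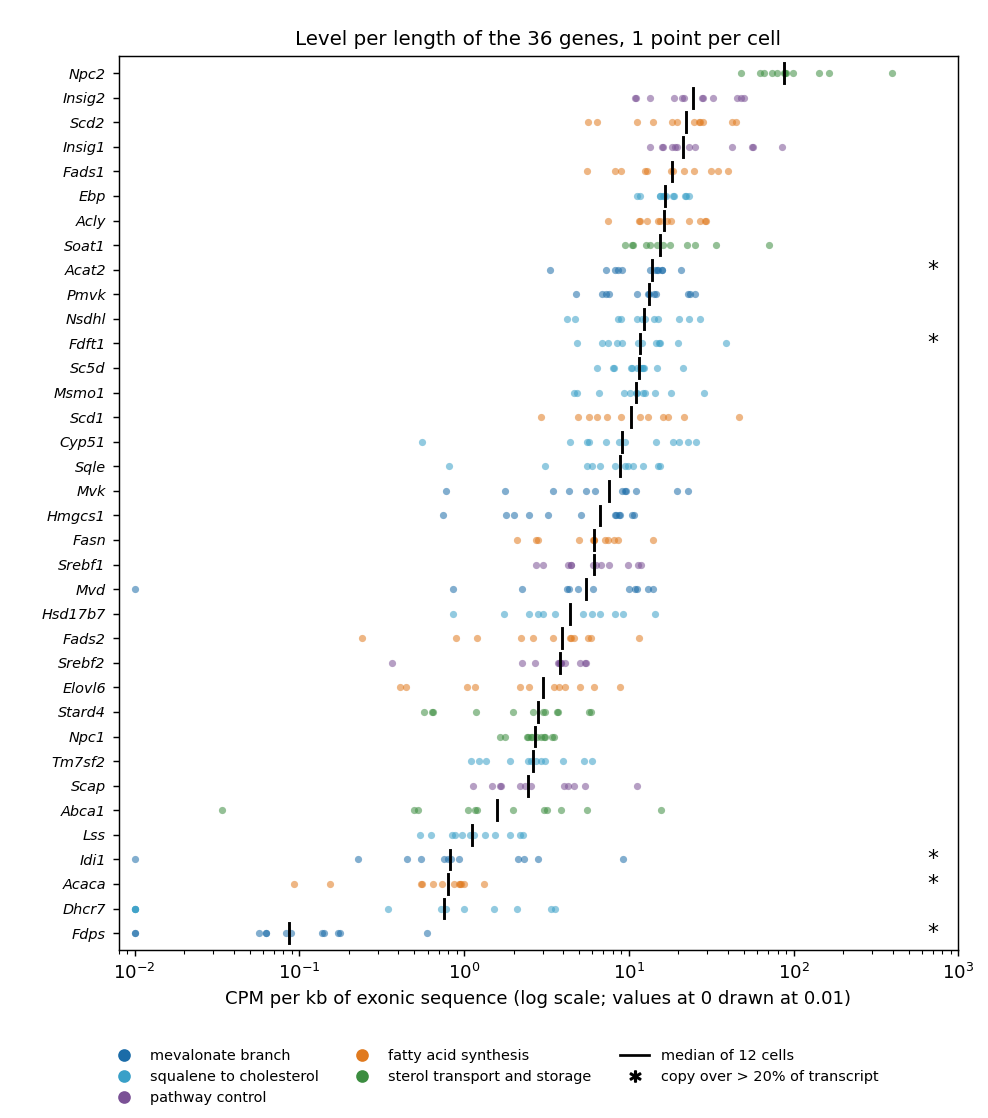
CPM per kb of exonic sequence (horizontal axis, log scale) of each gene (vertical axis, ordered by median), 1 point per cell with the median as a black line; values at 0 are drawn at 0.01, and stars mark genes with a copy over more than 20% of the transcript. Npc2 is at the top with a median of 87.9 and Fdps at the bottom with 0.0864.

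Summed over the 18 genes, sterol synthesis ran from 289 CPM in cell 10 and 373 CPM in cell 3 over a median of 545 CPM to 757 CPM in cell 1 and 789 CPM in cell 2. The mean was 551 ± 147 CPM (SD, 12 cells). The highest cell was 2.73-fold above the lowest, and 1.77-fold without cells 3 and 10. Fatty acid genes summed to between 272 CPM in cell 3 and 702 CPM in cell 1, with a median of 519 CPM. The order of cells differed between the lists: cell 2, highest in sterol synthesis, was second lowest in fatty acid synthesis at 322 CPM. Transport and storage summed to between 515 CPM in cell 8 and 2327 CPM in cell 3. In cell 3 Npc2 made most of the sum, while in cell 10, the second highest, Soat1 made more of it than Npc2.

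**Figure D3:**
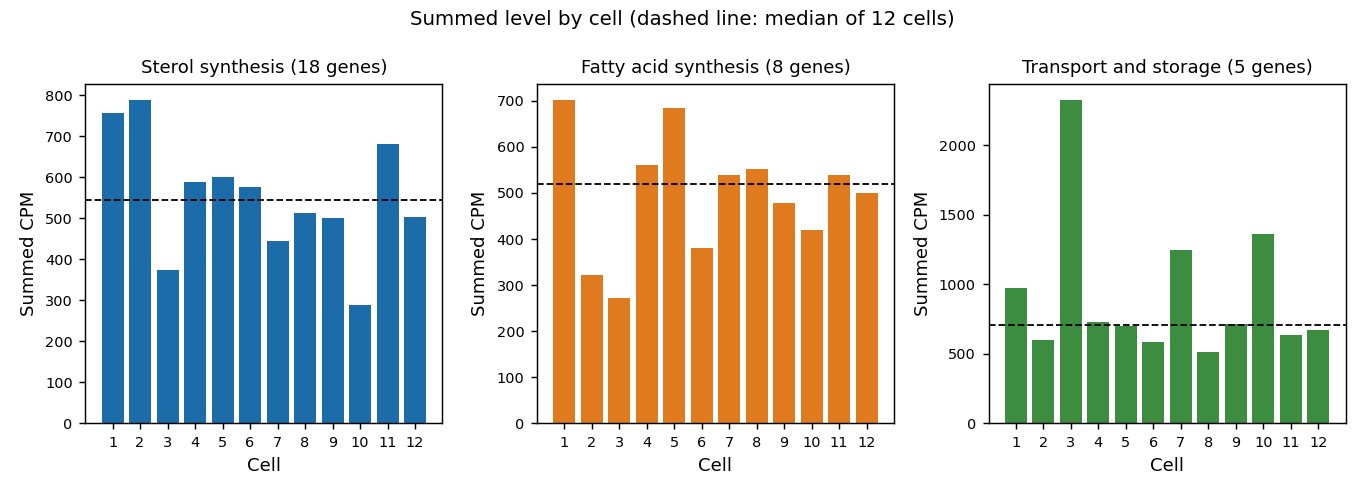
Summed CPM (vertical axes, from 0) of sterol synthesis, fatty acid synthesis and transport and storage genes in each cell (horizontal axes), with the median of 12 cells dashed. Cells 3 and 10 are lowest for sterol synthesis at 373 and 289 CPM and highest for transport and storage.

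In the cells with low sums the median gene of the list was low as well. On the log2(CPM + 1) scale, the median shift of sterol synthesis genes from their medians over cells was -0.76 in cell 10 and -0.44 in cell 3, where the median over all genes past the filter shifted by -0.15 and -0.23. In cell 11 the sterol genes shifted by 0.60 and all genes by less than 0.01. This cell had the high mural sum, mostly Acta2, and the part of cell type in the shift was not tested. In cell 8 the sterol genes shifted by -0.42 and all genes by -0.03, although its summed level of 513 CPM was not among the lowest. Of 15 sterol synthesis genes past the filter, 4 had their single lowest value in cell 3 (14.3% of all genes did), 4 in cell 8 (11.7% of all genes) and 3 in cell 10 (18.3% of all genes). For cell 10 the share of members, 20%, was close to that of all genes. At the other end, 3 of 15 were highest in cell 1, as were 2 of 8 fatty acid genes, against 5.13% of all genes. Fatty acid genes were lowest as a group in cell 3, with a median shift of -1.08.

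Whether the genes rise and fall together was described by Pearson's r of log2(CPM + 1) over the 12 cells, which share a protocol and differ in depth and in detected genes. Over the 105 pairs of sterol synthesis genes the median r was 0.174, with a range of -0.436 to 0.809, while over all 36052786 pairs of genes past the filter it was 0.024. Of the 105 pairs, 12 reached an r of 0.6 (11.4%), against 3.88% of all pairs. An r below 0 was found in 31 of the 105 pairs. Without cell 10 alone, 7 of the 105 pairs reached 0.6 (6.67%, against 4.46% of all pairs). Without cells 3 and 10 the median was 0.0572 against 0.01 over all genes, and the share at 0.6 was 4.76% against 5.11%. With size factors from the median of ratios in place of totals, the median was 0.100 against -0.002 and the share 4.76% against 3.38%.

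Fatty acid genes had a median r of 0.157 over 12 cells in 28 pairs, of which 3 reached 0.6 (10.7%, against 3.88% of all pairs) and 12 had an r below 0. This median was -0.111 without cells 3 and 10, where all genes had 0.01, and -0.0850 without cell 3 alone. Between sterol and fatty acid genes the median of 120 pairs was 0.109, and -0.0108 without cells 3 and 10. Sterol synthesis genes with the 5 controllers gave 0.0928 in 75 pairs, and with transport and storage genes -0.0910.

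**Figure D4:**
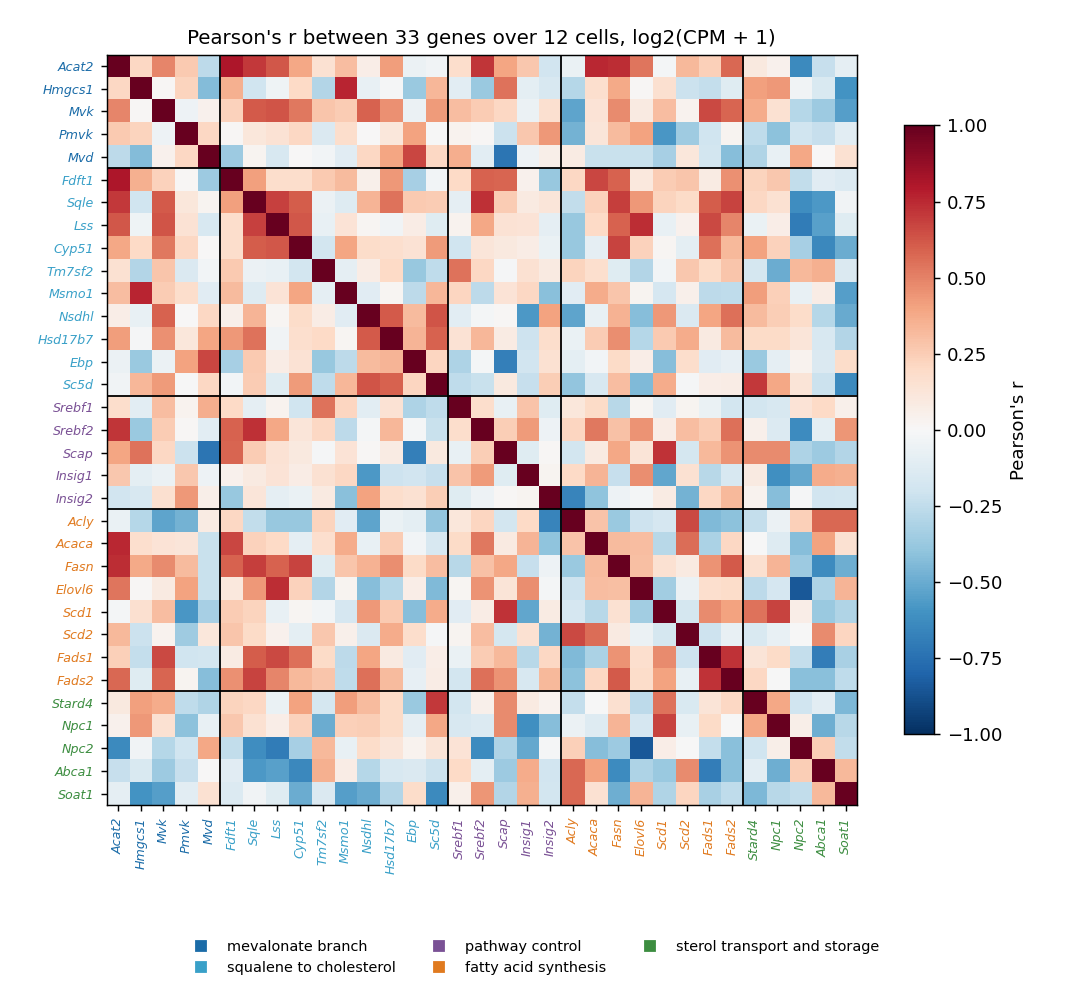
Pearson's r of log2(CPM + 1) over 12 cells between each pair of the 33 genes past the filter (both axes, coloured by role, red for positive and blue for negative). No role forms a red block; the strongest pairs are Acat2 with Fdft1 at 0.809 and, negative, Elovl6 with Npc2 at -0.848.

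Some pairs stood out. Acat2 and Fdft1 had r = 0.809, and 0.745 without cells 3 and 10, but both have annotated copies over a large share of the transcript. Hmgcs1 and Msmo1, neither with a copy, had r = 0.762 and 0.729 without these cells. Lss and Elovl6 had r = 0.741 and 0.883, and Acat2 and Fasn 0.737 and 0.680. These pairs thus held in the 10 other cells. Sqle and Srebf2, by contrast, went from r = 0.733 to 0.182 without cells 3 and 10, and Acat2 and Sqle from 0.708 to 0.00194. All 3 of these genes had their lowest value in cell 3. On the negative side, Elovl6 and Npc2 had r = -0.848, and -0.854 without the 2 cells, Mvd and Scap -0.727 and -0.724, and Insig2 and Acly -0.659 and -0.820. Others did not hold: without the 2 cells Sqle and Npc2 went from -0.621 to 0.149, and Srebf2 and Npc2 from -0.631 to 0.453. These pairs are the extremes of 528 and were picked by their r.

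Each gene was then set against the mean centred level of the other sterol synthesis genes, called here the sterol score. The median r of the 15 genes was 0.434, and 0.139 for the 8459 genes outside the 36. Without cells 3 and 10 these medians were 0.197 and 0.0593, and with size factors 0.264 and 0.0171. At r of 0.6 or more stood 4 of 15 genes, Mvk at 0.680, Hsd17b7 at 0.626, Sqle at 0.624 and Acat2 at 0.618, and 6.51% of the genes outside. Lowest were Tm7sf2 at -0.0333, Mvd at -0.00545 and Hmgcs1 at 0.0454. The count of 4 was 0 with size factors and 1, Hsd17b7 at 0.610, without cells 3 and 10. Among the 8 fatty acid genes, Fasn had r = 0.772 with the sterol score, 0.715 with size factors and 0.459 without cells 3 and 10, and was the highest of all members in the former 2 settings. Without cells 3 and 10, Hsd17b7, Pmvk and Acat2 were above it. Acly had -0.420, and -0.193 without these cells. With the mean of their own list, 0 of 8 fatty acid genes reached 0.6, against 5.3% of the genes outside. At this share few or none of 8 would do so. Fasn was the closest of the 8 at 0.578.

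Of 75 pairs of a sterol synthesis gene and a controller, 2 reached an r of 0.6 (2.67%, against 3.88% of all pairs), Srebf2 with Sqle at 0.733 and with Acat2 at 0.717, which were 0.182 and 0.233 without cells 3 and 10. With the mean of the fatty acid genes Srebf2 had r = 0.727, and 0.129 without these cells. Srebf2 had r = 0.319 with the sterol score and 0.0781 without cells 3 and 10, and Srebf1 had 0.174 and 0.397. Insig1, an SREBP target, had -0.0207. Storage and export went the other way, with Soat1 at -0.556 and Abca1 at -0.476. For Abca1 r was -0.0236 without cells 3 and 10, and for Soat1 it was -0.473.

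**Figure D5:**
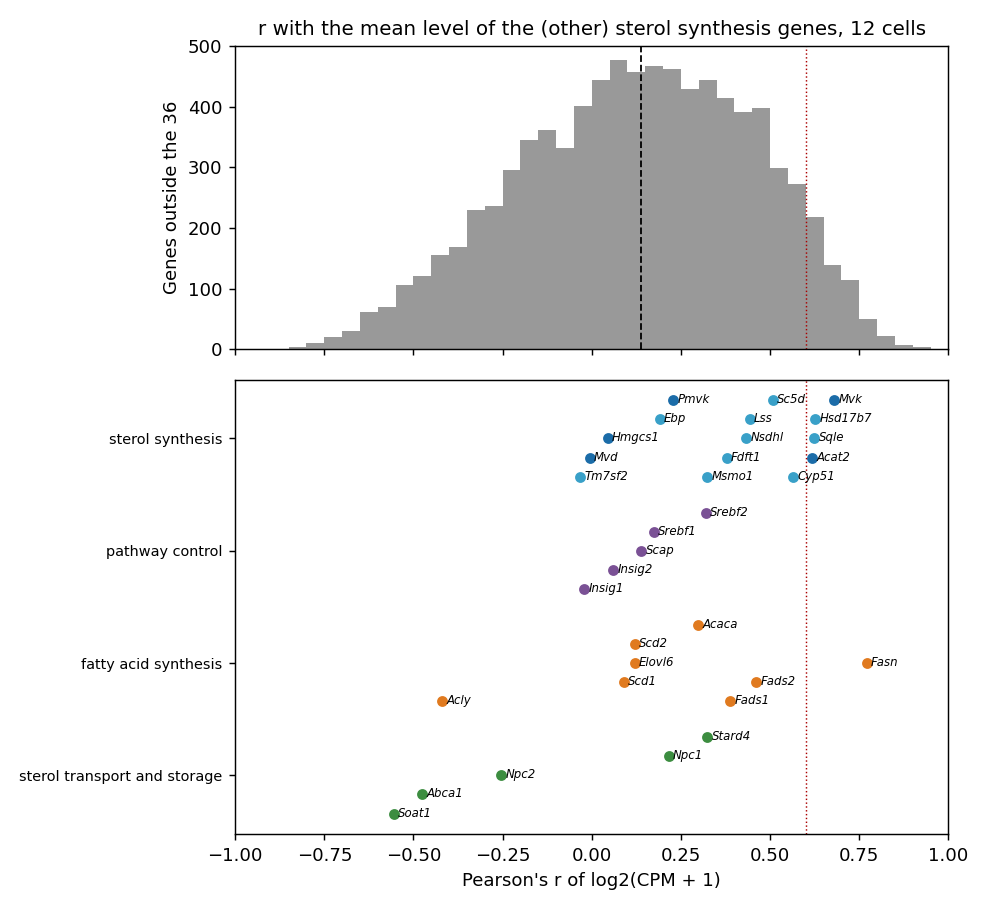
Pearson's r over 12 cells with the mean level of the (other) sterol synthesis genes: above, the number of genes outside the 36 in bins of r, with their median of 0.139 dashed; below, each of the 33 genes by role. The dotted line marks 0.6; Fasn at 0.772 and Mvk at 0.680 lie right of it, and Soat1 at -0.556 is farthest to the left.

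Of 30 other genes of these pathways, 22 were counted in every cell and 23 passed the filter. Of the 23, 0 reached an r of 0.6 with the sterol score, against 6.51% of the genes outside the 36, a share at which few of 23 would do so. Their median was -0.173, against 0.139 outside. Tmem97, a SREBP-driven membrane protein, came closest at 0.576. The next 3 genes were picked after their values were seen, because they stood out in the cells named above. Abcg1, a cholesterol exporter like Abca1, had counts in 3 cells only, the highest being 176 CPM in cell 10 and the next 8.96 CPM. Scarb1, the receptor for high-density lipoprotein, stood at 208 CPM in cell 10, the next cell having 32.9 CPM. Nr1h3, an LXR receptor, stood at 59.3 CPM in cell 3, the next cell having 14.2 CPM. The exporters Abca1 and Abcg1 were thus high in the cell with the lowest sum of sterol synthesis genes.

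The sterol score was also set beside features of the cells, as 27 relations over 12 cells in all for it and the fatty acid score. With detected genes r was 0.494 and Spearman's rho 0.643, and r was 0.448 without the 2 farthest cells. With total counts r was -0.254. With endothelial markers r was -0.680, rho -0.455, and r was -0.424 without cells 9 and 10. With S phase genes r was 0.296, rho 0.189, and r was 0.505 without cells 1 and 11. With G2/M genes r was 0.191, rho 0.154, and r was 0.510 without cells 9 and 11. With haematopoietic markers r was 0.210, rho 0.231, and r was 0.646 without cells 3 and 12. With summed collagens r was 0.530, rho 0.133, and r was 0.140 without cells 10 and 12. The fatty acid score had r = 0.540, rho 0.622, with G2/M genes, and 0.734 without cells 9 and 11. This was its strongest relation by r over 12 cells. With total counts its r was 0.260, with mitochondrial share -0.147 and with endothelial markers -0.406. Without the 2 cells farthest in each measure these were 0.599, -0.585 and -0.511. The scores of both pathways had r = 0.511 with each other, rho 0.399, and 0.280 without cells 3 and 5. The part of depth, detected genes and cell type in the scores was not tested.

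Of 8170 genes outside the 36 with enough counts, the 10 whose level over 12 cells was most like the sterol score were Socs4 at r = 0.928, Mrps30 at 0.918, Arhgap21 at 0.912, Prkg2 at 0.898, Ap1s2, Slf1, Nanos1, Ppfia1, Ppp2r3a and Mepce at 0.847. None belongs to the lists above. Without cells 3 and 10 their r lay between 0.623 for Ppp2r3a and 0.855 for Slf1. As these genes were picked from 8170 by r over the same 12 cells, these values are no separate support. The dispersion residual of sterol synthesis genes had a median of -0.0207, with 7 of 15 above 0, so that they varied about as much as genes of like mean. That of fatty acid genes was 0.129, that of controllers 0.127 and that of transport and storage genes 0.640. Without cells 3 and 10 these medians were 0.00862 for sterol synthesis, 0.0894 for fatty acid genes, 0.296 for controllers and 0.141 for transport and storage.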

How the data were processed

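Messenger RNA of 12 single cultured CPCs was copied with the Smart-Seq v4 kit, libraries were made with Nextera XT, and per the submitters' processing notes reads were mapped to mm10 with STAR 2.5.2b. The deposited values are raw counts per gene and cell, of uniquely mapped reads. The counting program, its annotation and its strand rule are not given in the sources used here. Columns of other series numbered 0.

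CPM were computed from the deposited counts with the total of each cell. Exonic lengths, positions and overlaps came from GENCODE vM21 on GRCm38, the build of mm10, and promoter windows of 250 bases before to 50 after a start from RefSeq on GRCm38.p6. Copies were sought with blastn 2.17.0 in the annotated transcripts (95% identity, 75 bases). Correlations used log2(CPM + 1), with a pseudocount of 1, over genes averaging 10 CPM or more. A score was the mean over a list of values centred on the gene's mean over cells. The dispersion residual was the logarithm (base 10) of the squared CV minus a running median of 201 genes. Depth was 3453708 to 5690184 counts per cell. The lowest chi-square over degrees of freedom among 66 pairs of cells was 42.3, so no library was counted in duplicate.

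All 36 listed genes were named. The lowest, median and highest cells were given for the 3 highest and 3 lowest in r with the sterol score, for the paralogs and for genes not counted in every cell. The genes most like the score were the 10 with the highest r among those counted in at least 10 cells. The members, lists and measures were chosen with earlier results of these data known. Marker lists of 10 genes each covered fibroblasts (summed level 189 to 6333 CPM), endothelial cells (0.629 to 9477), haematopoietic cells (2.99 to 160), mural cells (13.8 to 3737), cardiomyocytes (0 to 86.6), adipocytes (25.5 to 215), S phase (123 to 3665) and G2/M (34.5 to 5511). Alternatives covered scaling, filters, pseudocounts, rank correlation and depth, and leaving out 1 cell at a time. The steps were tested on simulated data. Software was matplotlib 3.10.9, scipy 1.17.1, pandas 2.3.3 and numpy 2.4.6 under Python 3.11.15.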

Additional observations from a re-analysis of the deposited data

How the results depend on the processing

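Over 9 results, 54 values were recomputed under other settings, of which 2 medians of r changed sign, 7 more values moved, and 45 stayed within the spread of their list or within 1.5 times for a count or fold. These 45 include large relative changes: the median dispersion residual of sterol synthesis genes, -0.0207, was 0.0642 with a filter of 5 CPM and 0.00862 without cells 3 and 10, the median r of sterol synthesis genes was 0.0572 without cells 3 and 10 and 0.100 with size factors, and that of fatty acid genes ran from 0.0791 with size factors to 0.290 in cells with at least 11000 detected genes. Without cells 3 and 10, the median r of fatty acid genes was -0.111 and that between sterol and fatty acid genes -0.0108, the number of sterol synthesis genes at r of 0.6 or more with the rest of their list was 1, and the fold between the highest and lowest summed level was 1.77. That number was 0 with median-of-ratios size factors, 2 with Spearman's rho, 2 with no filter other than a count in 3 cells, and 1 without genes that have a copy over more than 20% of the transcript, a setting chosen after seeing the data. At a threshold of 10 CPM, 16 of the 36 genes passed in every cell in place of 32. The share of all genes that passed at this threshold was not computed. Leaving out each cell in turn gave a median r of 0.0974 to 0.206 for sterol synthesis genes, the lowest without cell 10, of -0.0850 to 0.211 for fatty acid genes, the lowest without cell 3, and of 0.0625 to 0.1598 between the lists. It gave 2 to 5 genes at r of 0.6, with 2 without cell 1, 3, 10 or 11. Among the 7 cells with at least 11000 detected genes the median r of sterol synthesis genes was 0.0854 against 0.042 over all genes, and 11.4% of their pairs reached 0.6 against 10.6%. The cause of these changes was not tested. Values for single genes, and for the dispersion of the other lists, without cells 3 and 10, and the median r with the score without these cells or with size factors, were added after seeing the data. With 12 cells an r is imprecise, and values near 3 counts do not separate low from absent.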
